A study of Mus musculus and Rattus norvegicus with 6 samples.

Results

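Liver transcripts were compared between leptin-deficient mice injected with leptin and leptin-deficient mice injected with saline, at 6 h. The comparison rests on 2 of the 6 arrays of the series, 1 per treatment, chosen by genotype and treatment as labelled. Both arrays came from male mice homozygous for the Lepob allele, of C57/BL6J background and 20 weeks of age, with liver taken 6 h after an intraperitoneal injection of recombinant murine leptin or of saline. The dose is written as 1 microg/mg in the series description and is not interpreted here. Another mouse array, from saline-injected wild-type (WT) littermates of the same age, is given beside the values, and so are 3 rat arrays of an F344/NSlc background: WT with saline, and Lepmkyo/Lepmkyo with saline and with leptin. The genotype of the mutant rats is spelled in different ways in their labels. The labels do not say if the RNA of several animals was pooled for an array. With 1 array per group there is no replicate spread and no test; "higher" and "lower" compare 2 arrays, and precision is limited by having so few arrays. The stated purpose of the early time was to look at the liver before feeding and body weight respond.

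Leptin is secreted by fat cells and acts mainly on neurons of the hypothalamus, through the long form of its receptor, Janus kinase 2 and the transcription factor STAT3, which induces the feedback inhibitor Socs3. Animals without leptin overeat and become obese, insulin resistant and steatotic, and leptin given to them lowers feeding and hepatic lipid. The liver itself carries mostly short forms of the receptor.

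The samples carried the transcripts of liver. All 15 hepatocyte markers with a probe set were above the floor, a signal of 82.7 that is the median of all mouse values and stands in for a detection limit. Albumin (Alb) had a signal of 35699.7 with saline and 35899 with leptin, against 47895 in the WT liver. Leptin itself (Lep) was under the floor on the 3 mouse arrays, which in liver gives no check of the genotype. The 3 mouse arrays had median signals of 77.0 to 91.9 over 45037 probe sets.

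Differences between the leptin and saline arrays were mostly small. With 1 array per side, a response to leptin cannot be told apart from differences between animals. With leptin, 252 of the 11536 measured genes (2.18%) stood 1.5-fold or more above saline and 255 (2.21%) 1.5-fold or more below it; 21 (0.182%) and 28 (0.243%) reached 2-fold. The median log2 ratio of leptin over saline was -0.0022, with 49.4% of genes above 0 and 50.5% below. Large ratios belonged mostly to dim genes. Among genes of mean signal under 200, 11.7% were at least 1.5-fold apart, and among those of 3000 or more 0.640%. Of the 6137 genes with a mean of 500 or more over the 3 mouse arrays, called bright below, 26 (0.424%) passed 1.5-fold upward and 24 (0.391%) downward. The WT array enters this mean, and 163 of the bright genes had a mean under 500 on the mutant arrays; of the 6090 genes at 500 or more on those, 23 passed 1.5-fold upward and 22 downward. The brightest genes leaned upward: of 198 genes with a mean signal of 20000 or more, 79.8% had a ratio above 0, with a median log2 ratio of 0.038. Beside lists of abundant secreted proteins, the share of such genes is given.

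**Figure D1:**
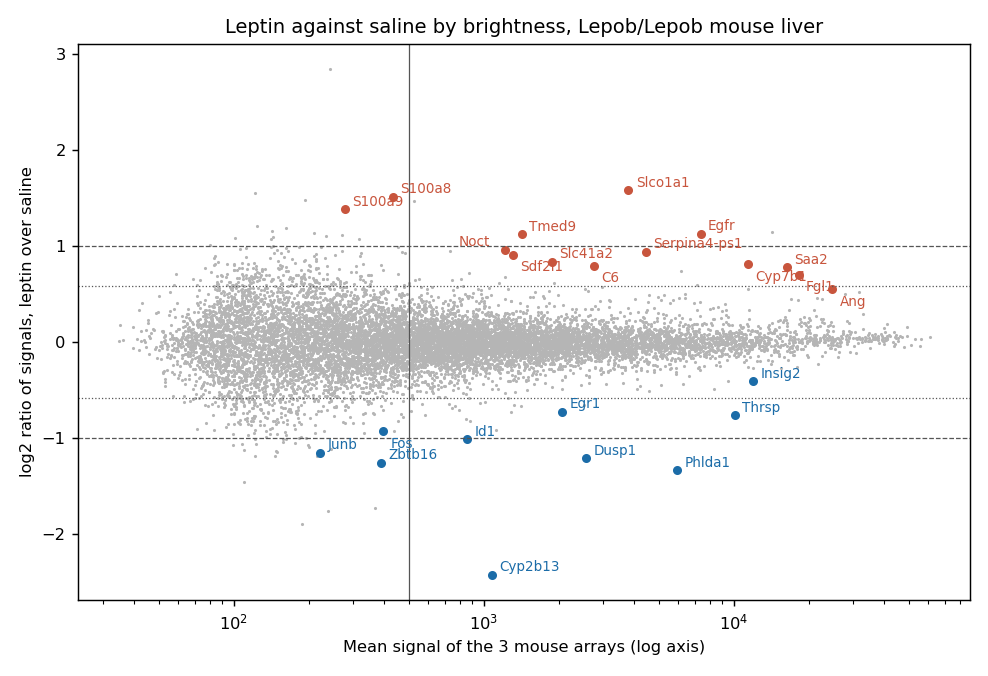
Log2 ratio of leptin over saline in Lepob/Lepob mouse liver against mean signal over the 3 mouse arrays (log axis), 1 point per gene. The vertical line marks a signal of 500, dotted lines 1.5-fold and dashed lines 2-fold; the cloud narrows with brightness, and the named bright genes, from Cyp2b13 at -2.42 to Slco1a1 at 1.58, lie outside it. Slco1a1 counts as bright through its WT signal only.

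Several probe sets for the same gene give a check on noise between probe sets, though not on error shared by a whole array or on differences between animals. Probe sets of a gene differed by an SD of 0.258 in log2 ratio over 4859 genes and of 0.234 over the 3440 bright genes with at least 2 probe sets at the floor. Of those 3440, every probe set was above 0 in 20.4% and below 0 in 21.4%. In 2 genes (0.0581%), Serpina4-ps1 and Tmed9, every probe set passed 1.5-fold upward, and in 1 gene (0.0291%), Thrsp, downward. Serpina4-ps1 was bright only through WT; with brightness taken from the mutant arrays, Tmed9 was the 1 gene of 3400 left upward and Thrsp the 1 downward. At 1.2-fold, every probe set was higher in 30 genes and lower in 26.

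Thrsp, a nuclear regulator of fatty acid synthesis genes, had a signal of 15005 with saline, 8836 with leptin and 6406 in WT, a log2 ratio of -0.76. Its other probe set read 6909 with saline and 3799.7 with leptin, against 2397 in the WT liver, a log2 ratio of -0.86. On both probe sets the leptin value lay between those of the other 2 arrays. The saline array enters the contrast with WT as well, so a leptin value between the others is given only as a value.

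Insig2, an endoplasmic reticulum protein that retains the sterol regulatory factors and whose liver form is known to be repressed by insulin, was lower on all 3 probe sets, with log2 ratios of -0.41 to -0.45. Its brightest probe set read 12899 with saline, 9721 with leptin and 13143 in WT. On the others it read 13297 with saline and 10002 with leptin, against 10296 in the WT liver, and 13002 with saline, 9539 with leptin and 8592 in WT. Saline was above leptin on all 3, while WT lay above saline on the first, between saline and leptin on the next and below leptin on the last. Fkbp5, a co-chaperone of the glucocorticoid receptor, read 2077 with saline and 1609 with leptin, against 831 in the WT liver, with log2 ratios of -0.37 and -0.60. Tns1, an adaptor of focal adhesions, was lower on 3 probe sets, with log2 ratios of -0.39 to -0.43.

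The other agreeing lower genes by the naming rule were the glutathione transferase Gstm3, the myeloid adhesion receptor Adgre4, the inhibitor of apoptosis Birc3, the transporter Slc45a3, the tubulin folding cofactor Tbcd, the mitochondrial Acad9, the basement membrane glycoprotein Nid1, the water channel Aqp4, Zfyve1, the tubulin Tubb2a and the transcription factor Gata6. Their brightest probe sets had log2 ratios from -0.53 for Tbcd to -0.33 for Gata6. Gstm3 had the brightest signals of these, 12895 with saline, 9222 with leptin and 2869.6 in WT.

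Among agreeing higher genes, the serpin pseudogene Serpina4-ps1 read 286 with saline and 548 with leptin, against 12475 in the WT liver. Its 3 probe sets had log2 ratios of 0.94, 0.76 and 1.06. The WT signal was far above both mutant arrays, so the difference between the mutant arrays covers a small share of the distance to WT.

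Tmed9, a cargo receptor of the early secretory pathway, read 774 with saline, 1686 with leptin and 1781 in WT, a log2 ratio of 1.12. That probe set may bind several transcripts, and the other, at 1125 with saline and 1841 with leptin, against 1241 in the WT liver, gave 0.71. Ang, the secreted ribonuclease angiogenin, was higher on 3 probe sets with log2 ratios of 0.55, 0.69 and 0.74. Its brightest probe set read 15594 with saline, 22800.1 with leptin and 35867 in WT. Genes of the Ang family are similar in sequence, and their signals may be shared.

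The remaining agreeing higher genes by the rule were Cyp7b1, Cebpd and Saa1, described below with their lists, and Poglut2, Ankrd33b, Paqr9, Fgd4, Trim21, Lrp6, Lpgat1, Cldn2 and Fgfr2. Among these are the Wnt co-receptor Lrp6, the tight junction protein claudin 2 (Cldn2) and the growth factor receptor Fgfr2. The brightest probe sets of the 9 had log2 ratios from 0.34 for Fgfr2 to 0.51 for Poglut2. Lpgat1, an acyltransferase of phospholipid synthesis, was higher on all 4 probe sets, at 7925 with saline and 10154 with leptin, against 6654 in the WT liver on the brightest.

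Of the bright genes, the next highest ratios after Slco1a1 were those of Clcn5, a chloride transporter, and Malat1, a nuclear long noncoding RNA, both named after their values were seen. Malat1 read 2891 with saline, 6408 with leptin and 33503 in WT, with a log2 ratio of 1.15, close to that on the second brightest, and its 7 probe sets ran from -0.11 to 1.15. Clcn5 read 298 with saline and 828 with leptin, against 447 in the WT liver, with 1.47 on a probe set that may bind several transcripts, and its 3 probe sets ran from -0.36 to 1.47.

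**Figure D2:**
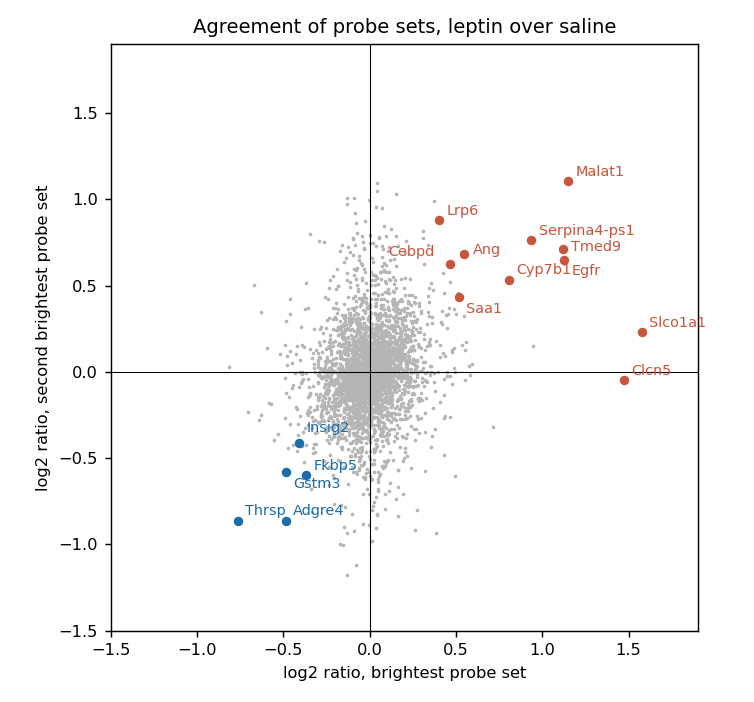
Log2 ratio of leptin over saline on the second brightest probe set against that on the brightest, for bright mouse genes with at least 2 probe sets. Thrsp lies in the lower left, and Serpina4-ps1, Tmed9, Cyp7b1 and Ang in the upper right with Malat1, whose other probe sets reach below 0. Slco1a1 and Cebpd are plotted at lower bounds on their second probe sets.

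The pathway of the leptin receptor itself differed little. Of 20 measured members of the receptor and JAK-STAT list, 0 were 1.5-fold apart in either direction, 9 were above 0, and the median log2 ratio was -0.093. The receptor, Lepr, had dim signals of 257 with saline, 276 with leptin and 82.1 in WT, a log2 ratio of 0.10; its probe sets ran from -0.20 to 0.25. Stat3 read 1566 with saline and 1884 with leptin, against 2641 in the WT liver, a log2 ratio of 0.27, with 0.25 on a second probe set and -0.077 on a dim one.

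Socs3, the feedback inhibitor that STAT3 induces, was not higher with leptin. It read 1150.2 with saline, 855 with leptin and 609 in WT, a log2 ratio of -0.43 on a probe set that may bind several transcripts, and -0.21 and -0.0051 on the others. On the last of these, whose name marks no shared binding, the saline and leptin signals were 227 and 226. Stat5a, a relative of Stat3, had a log2 ratio of -0.56 (352 with saline and 239 with leptin, against 364 in the WT liver), and the oncostatin M receptor Osmr of -0.41, or -0.012 with the floor at the 75th percentile.

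Socs3 was the only member of that list, of 19 with a promoter, whose 250 bases upstream held the palindrome TTCNNNGAA, the core bound by STAT dimers. The palindrome occurred in 7.02% of 32851 RefSeq promoters of build GRCm38.p6, both strands searched. The stretch is shown because Socs3 is the textbook readout of STAT3 and its transcript was not higher here. Capitals mark the match, on the minus strand of chromosome 11, chr11:117969467-117969565.
Socs3: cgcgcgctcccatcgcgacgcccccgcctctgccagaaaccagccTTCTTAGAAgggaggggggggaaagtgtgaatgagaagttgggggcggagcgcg

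Immediate early genes, which growth factors, stress and hormones induce rapidly and without new protein synthesis, were lower more often than higher. Among 45 measured members of that list, 11 passed 1.5-fold downward and 0 upward, beside 2.21% and 2.18% of all genes. The median log2 ratio was -0.20, with 29 members below 0 and 16 above. Of the 21 bright members, 6 were at least 1.5-fold lower, beside 0.391% of bright genes. Of the 45 members, 30 had no more than 1 probe set at the floor. Of the 8 bright members with several probe sets, all probe sets were above 0 in 4 and below 0 in 1, beside 20.4% and 21.4% of such genes. Of the 11 lower members all but Btg2 had 1 probe set at the floor.

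Phlda1, an early growth factor target with a pleckstrin homology-like domain, had a signal of 4790.3 with saline, 1901 with leptin and 11128 in WT, 2.52-fold lower with leptin. Dusp1, the phosphatase that inactivates MAP kinases, read 3419 with saline and 1478 with leptin, against 2811 in the WT liver, 2.31-fold lower. For both, the leptin array was the lowest of the 3 mouse arrays.

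Junb, a subunit of the AP-1 transcription factor, read 232 with saline, 104 with leptin and 326 in WT, 2.23-fold lower, and Egr1, a zinc finger factor of the growth factor response, 1348 with saline and 814 with leptin, against 4023 in the WT liver, 1.66-fold lower. In both, WT was the highest array and leptin the lowest. Fos, the partner of Jun proteins in AP-1, read 584 with saline, 306 with leptin and 298 in WT, 1.91-fold lower, so that the leptin and WT arrays were close and the saline array stood above them. With the floor at the 75th percentile its log2 ratio was -0.60.

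Gadd45g, a growth arrest and stress gene, read 1314 with saline and 756 with leptin, against 481 in the WT liver and was 1.74-fold lower. Myc read 269 with saline, 159.8 with leptin and 107 in WT, 1.68-fold lower. Spry4, an inhibitor of receptor tyrosine kinase signalling, was dim at 247 with saline and 124 with leptin, against 213 in the WT liver, a log2 ratio of -1.0. For Gadd45g and Myc the leptin value lay between WT and saline.

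Btg2, an antiproliferative gene, was 1.76-fold lower by the brighter of its probe sets but 0.031 in log2 ratio by the other. Csrnp1 and Klf10 completed the 11, each with a log2 ratio of -0.65. Btg2, Myc, Csrnp1 and Klf10 are named because they complete this count, after their values were seen.

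Some members lay in the other direction. Cebpd, a transcription factor of the acute phase response, read 872 with saline, 1203 with leptin and 302 in WT, with log2 ratios of 0.46 and 0.63 on its probe sets. The second of these is a bound, as that probe set was under the floor with saline. The related Cebpb read 8930.5 with saline and 11138 with leptin, against 6744 in the WT liver, a log2 ratio of 0.32. Cebpd and Cebpb were both highest on the leptin array of the 3.

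Of 38 immediate early genes with a promoter, 5 held the cyclic AMP response element TGACGTCA within 250 bases upstream (Btg2, Dusp1, Errfi1, Maff and Plk2), beside 1.55% of all promoters. The shorter TGACGT, which the full element contains, was in 14 of 38, beside 6.47% of all. The CArG box, bound by serum response factor, was in 4 of 38, beside 1.47%, and the STAT palindrome in 1, Zfp36. Both strands were searched. Dusp1, Btg2 and Fos are shown because they were the only ones of the 11 lower genes found with the full or the short element. Not every member of the list had a promoter to search. The other genes with TGACGT were not among the 11 lower genes: Atf3, Btg1, Ccn1, Dusp5, Egr2, Errfi1, Maff, Nr4a3, Plk2, Plk3 and Tnfaip3. Of these, Errfi1, which holds the full element, had a log2 ratio of 0.20. Capitals mark the match in chr17:26508563-26508660 (minus strand), chr1:134079269-134079366 (minus strand) and chr12:85473779-85473874 (plus strand), in that order.
Dusp1: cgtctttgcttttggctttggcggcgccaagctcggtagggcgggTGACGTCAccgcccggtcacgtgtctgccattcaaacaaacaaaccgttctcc
Btg2: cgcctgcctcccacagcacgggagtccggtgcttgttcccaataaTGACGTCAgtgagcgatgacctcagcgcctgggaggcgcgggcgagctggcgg
Fos: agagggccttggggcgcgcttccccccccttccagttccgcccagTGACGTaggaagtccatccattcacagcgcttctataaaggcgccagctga

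Id1, an inhibitor of helix-loop-helix factors and a target of bone morphogenetic proteins, was 2.01-fold lower at 1296 with saline, 643 with leptin and 636 in WT. Its relative Id3, named after its value was seen, read 2492 with saline and 1579 with leptin, against 3493 in the WT liver, a log2 ratio of -0.66. The other bright lower genes with 1 probe set that the rule named were Erdr1, 9030619P08Rik, the deacetylase Sirt2 and Cyp2b13, which is described with its family. Sirt2 read 1476 with saline, 891 with leptin and 1467 in WT, and only the leptin array stood apart.

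The folding machinery of the endoplasmic reticulum (ER) leaned upward. Of 26 measured genes of the ER folding and unfolded protein response list, 23 were above 0, beside 49.4% of all genes, with a median log2 ratio of 0.18. The sizes were small: 2 members were at least 1.5-fold higher and 0 lower. Of 17 bright members with several probe sets, all probe sets were above 0 in 10 and below 0 in 1, beside 20.4% and 21.4% of such genes. Only 2 members had a mean signal of 20000 or more, and 22 of the other 24 were above 0, so this list did not consist of the brightest genes.

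Sdf2l1, a partner of the chaperone BiP, read 494 with saline and 929.7 with leptin, against 2484 in the WT liver, 1.88-fold higher, and Creld2, an ER disulfide isomerase, 1332 with saline, 2042 with leptin and 2356 in WT, 1.53-fold higher. Syvn1, the ubiquitin ligase of ER-associated degradation, read 1804 with saline and 2653 with leptin, against 3155 in the WT liver, a log2 ratio of 0.56. That probe set may bind several transcripts, and the other gave 0.17. Dnajb9, a BiP cochaperone, read 4835 with saline, 6569 with leptin and 5649 in WT, and here the leptin array was the highest of the 3.

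The central chaperones differed less. Hspa5, which encodes BiP, read 15610.1 with saline and 18609.7 with leptin, against 25943 in the WT liver, 1.19-fold higher, and its 3 probe sets ran from 0.091 to 0.32. Calr, the lectin chaperone calreticulin, read 12897 with saline, 15426 with leptin and 19731 in WT, with log2 ratios of 0.26 to 0.35 on 3 probe sets. The secreted ER protein Manf read 4800.1 with saline and 6352 with leptin, against 9539 in the WT liver, a log2 ratio of 0.40. Manf and Calr were not among the genes that the rule named. The disulfide isomerase P4hb and the degradation component Sel1l stood at -0.0059 and -0.0079.

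Of 22 members with a promoter, 10 held the ER stress response element, CCAAT followed after 9 bases by CCACG, within 250 bases upstream on either strand. It is bound by ATF6 together with NF-Y, and was in 37 of 32851 promoters (0.113%). The 10 were Calr, Canx, Creld2, Derl3, Dnajc3, Ero1b, Hsp90b1, Hspa5, Pdia6 and Syvn1. All had log2 ratios above 0, from 0.015 to 0.62, beside 23 of the 26 measured members of the list. Hspa5, Calr, Creld2 and Syvn1 are shown to set small ratios of abundant chaperones beside larger ones with the same element. Sdf2l1 had no match in this window. Capitals mark the match, in chr2:34771980-34772088 (plus), chr8:84847030-84847138 (minus), chr15:88819475-88819583 (plus) and chr19:6046487-6046575 (plus); for Calr and Creld2 the element reads on the opposite strand.
Hspa5: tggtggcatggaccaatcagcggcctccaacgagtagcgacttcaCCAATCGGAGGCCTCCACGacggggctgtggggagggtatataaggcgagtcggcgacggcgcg
Calr: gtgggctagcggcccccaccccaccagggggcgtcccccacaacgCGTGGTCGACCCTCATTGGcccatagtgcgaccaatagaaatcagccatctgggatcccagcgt
Creld2: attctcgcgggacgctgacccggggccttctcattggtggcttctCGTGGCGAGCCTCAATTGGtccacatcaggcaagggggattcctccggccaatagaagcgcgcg
Syvn1: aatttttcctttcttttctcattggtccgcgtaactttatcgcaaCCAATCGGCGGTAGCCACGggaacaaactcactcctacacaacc

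Neighbouring stress lists differed less. The heat shock chaperones had a median of 0.035 over 22 genes, 14 of them above 0, and the ATF4 and amino acid response genes 0.098 over 24, 16 of them above 0. Asns, the asparagine synthetase that ATF4 induces, read 139 with saline, 221 with leptin and 195 in WT, 1.59-fold higher. Its other probe set was under the floor with saline, so its log2 ratio of 0.63 is a bound. Slc7a5, an amino acid transporter, was at least 1.51-fold lower. Cryab led the heat shock list at 0.54.

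Acute phase proteins, which the liver secretes in inflammation and which the STAT3 and C/EBP factors drive, also leaned upward. Of 26 measured, 23 were above 0, the median log2 ratio was 0.16, 2 were at least 1.5-fold higher and 0 lower. After quantile normalization, which removes the lean of the brightest genes, 76.9% of the list were above 0 and the median was 0.14. Of 12 members at 20000 or more, 11 were above 0, beside 79.8% of all genes that bright, and of the 14 dimmer ones 12 were.

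Saa2, a serum amyloid A apolipoprotein, read 5092 with saline and 8722 with leptin, against 35059 in the WT liver, 1.71-fold higher. Saa1 read 17667 with saline, 25302 with leptin and 51623 in WT, with log2 ratios of 0.52 and 0.44 on both probe sets. The Saa genes are near copies, and their signals may be shared. Lcn2, lipocalin 2, an iron scavenger of hepatocytes and neutrophils, read 7838 with saline and 11808 with leptin, against 1753 in the WT liver, 1.51-fold higher.

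Steap4, a metalloreductase, had a log2 ratio of 0.41, and Fgb, the beta chain of fibrinogen, 0.16 (42126 with saline, 47124 with leptin and 59096 in WT). Orm3, an acid glycoprotein, was the lowest member at -0.35. Fgl1, a fibrinogen-like protein secreted by the liver, read 12389 with saline and 20155 with leptin, against 21849 in the WT liver, 1.63-fold higher, with the leptin array closer to WT than to mutant saline. The STAT palindrome lay upstream of 6 of 24 acute phase genes (Apcs, Fga, Fgb, Hamp, Itih4 and Steap4), beside 7.02% of all promoters.

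Complement and coagulation genes had a median of 0.093; 25 of 28 were above 0 and 1 was at least 1.5-fold higher. All 6 members at 20000 or more and 19 of the other 22 were above 0. Components of the membrane attack complex had the highest ratios of the list. C6 read 707 with saline, 1227 with leptin and 6304 in WT, 1.73-fold higher, C8b 1348 with saline and 1899 with leptin, against 10468 in the WT liver, a log2 ratio of 0.49, and C8a 10209 with saline, 13859 with leptin and 30231 in WT, a log2 ratio of 0.44. For all 3, WT stood far above both mutant arrays.

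Cholesterol synthesis and uptake genes, the targets of SREBP2, numbered 21, of which 16 lay above 0 and 0 were 1.5-fold apart, and their median log2 ratio was 0.17. Farnesyl diphosphate synthase (Fdps) read 1729.8 with saline and 2361 with leptin, against 7932 in the WT liver, a log2 ratio of 0.45, and squalene epoxidase (Sqle) 225 with saline, 299 with leptin and 699 in WT, 0.41. The mevalonate decarboxylase Mvd was the lowest at -0.36. In Fdps and Sqle the leptin array stayed closer to mutant saline than to WT.

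Lipogenic genes leaned the other way, by little: the median of 25 was -0.05, with 17 below 0 and 1, Thrsp, at least 1.5-fold lower. Fatty acid synthase (Fasn) read 1544 with saline and 1182 with leptin, against 2167 in the WT liver, a log2 ratio of -0.38, acetyl-CoA carboxylase (Acaca) -0.32 and the elongase Elovl6 -0.28. Srebf1, the factor that drives them, read 4297 with saline, 3794 with leptin and 3625 in WT, a log2 ratio of -0.18. The desaturase Scd1 is often used as a marker of leptin's action on liver. Its brightest probe set read 40207 with saline and 42255 with leptin, against 50563 in the WT liver, a log2 ratio of 0.072. Its other probe set differed in sign and had WT lowest. It read 4680 with saline and 4387 with leptin, against 3663 in the WT liver, a log2 ratio of -0.093.

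Sugar metabolism genes stood beside them. Of 15 measured genes of glycolysis, fructose and pentose phosphate metabolism, 12 were below 0 and 2 above, with a median of -0.15 and 0 at 1.5-fold. Liver pyruvate kinase (Pklr) read 1698 with saline, 1299 with leptin and 961 in WT, a log2 ratio of -0.39, and hexokinase 2 (Hk2) 523 with saline and 371 with leptin, against 176 in the WT liver, -0.49. Phosphogluconate dehydrogenase (Pgd) was lower on all 4 probe sets, from -0.51 to -0.21. Lactate dehydrogenase (Ldha) was the highest member at 0.17.

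Genes of lipid storage had a median of -0.098 over 22, with 14 below 0, and only Hilpda, an inhibitor of lipolysis, was 1.5-fold apart (242 with saline, 149.9 with leptin and 106 in WT, 1.62-fold lower). Mogat1, a monoacylglycerol acyltransferase, had a log2 ratio of -0.50. Fatty acid oxidation genes had a median of 0.018 over 30 with 0 at 1.5-fold. Cidec, a droplet fusion protein, read 3144 with saline and 2808 with leptin, against 32.6 in the WT liver.

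Fasting and insulin readouts were close on the mutant arrays. For 21 gluconeogenesis and fasting genes the median was 0.038, and for 21 of insulin and FOXO signalling -0.0053. Phosphoenolpyruvate carboxykinase (Pck1) read 23838 with saline, 25754 with leptin and 25389 in WT on its brightest probe set, a log2 ratio of 0.11. Its other probe set, which may bind several transcripts, read 2401 with saline, 2168 with leptin and 9693 in WT, a log2 ratio of -0.15. There both mutant arrays stood far below WT. Glucose-6-phosphatase (G6pc) read 8442 with saline and 8886 with leptin, against 11794 in the WT liver. Igfbp1, an insulin-repressed secreted protein, read 5285 with saline, 5609 with leptin and 8442 in WT.

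Irs2, the insulin receptor substrate, read 154 with saline and 81.4 with leptin, against 190.2 in the WT liver, at least 1.86-fold lower, as the leptin signal was under the floor. Angptl8, an insulin-induced inhibitor of lipoprotein lipase, read 1241 with saline, 788 with leptin and 1915 in WT, 1.58-fold lower, with the leptin array the lowest of the 3. It was the only 1 of 24 hepatokines and secreted regulators at 1.5-fold; the median of that list was 0.042. Fgf21, a fasting hormone, read 1045 with saline and 1258 with leptin, against 180 in the WT liver, a log2 ratio of 0.27, and Igfbp2, a binding protein that leptin is known to induce in liver, 1045 with saline, 1466 with leptin and 13241 in WT, 1.40-fold higher.

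Some genes of steroid, bile acid and drug metabolism are known to be set by growth hormone in a sex-dependent way. Cyp2b13, a cytochrome P450 typical of female liver, had the lowest ratio of the 11536 genes and read 2688 with saline and 501 with leptin, against 47.5 in the WT liver, 5.36-fold lower. It was under the floor in the male WT liver, and the leptin array lay between. Its relative Cyp2b9 read 8032 with saline, 5645 with leptin and 93.4 in WT, 1.42-fold lower, and Cyp2b10 had 3 probe sets from -0.46 to -0.27. These P450 genes are near copies, and their signals may be shared. The xenobiotic list as a whole had a median of -0.056 over 28 genes. Sult1e1, the oestrogen sulfotransferase, read 3187 with saline and 4601 with leptin, against 2.8 in the WT liver, a log2 ratio of 0.53, in the direction away from WT.

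The male-typical bile acid and steroid transporter Slco1a1 read 90.2 with saline, 269 with leptin and 11001 in WT, 2.99-fold higher on its brightest probe set. The other probe set read 35.7 with saline and 97.1 with leptin, against 5822 in the WT liver, so that saline was under the floor and the log2 ratio of 0.23 against the floor is a lower bound. With that bound as its value, the median of both is 0.91. Slco1a1 is bright through WT only, and its saline signal was close to the floor. Cyp7b1, the oxysterol 7-alpha-hydroxylase, read 745 with saline, 1306 with leptin and 32075 in WT and 568 with saline and 823 with leptin, against 21314 in the WT liver on its probe sets, log2 ratios of 0.81 and 0.53. Both genes stood far below WT on both mutant arrays.

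Slc10a2, the ileal-type bile acid transporter, was dim (120.2 with saline, 204 with leptin and 462 in WT) and 1.70-fold higher. Bile acid genes had a median of 0.055 over 22, with 3, Slco1a1, Cyp7b1 and Slc10a2, at least 1.5-fold higher and 0 lower. Cyp8b1, the sterol 12-alpha-hydroxylase, had a log2 ratio of 0.41 and the nuclear receptor Nr0b2 of -0.34.

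Egfr, the epidermal growth factor receptor, read 959.6 with saline and 2094 with leptin, against 19015 in the WT liver, 2.18-fold higher on its brightest probe set. The next probe sets gave 0.65 and 0.68, while of the 3 dimmest 2 lay below 0 and 1 was under the floor on both mutant arrays. The median over all 6, with that probe set at 0, was 0.32. On the 3 bright probe sets WT stood far above both mutant arrays, as for Serpina4-ps1 and C6. The growth hormone and IGF list had a median of 0.09 over 20 genes; Cux2, a female-typical regulator, was at 0.60 and dim. Cish, a feedback target of STAT5, read 598 with saline, 415 with leptin and 1460.5 in WT, a log2 ratio of -0.53. Igf1 itself read 12440.2 with saline and 13241 with leptin, against 17086 in the WT liver.

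**Figure D3:**
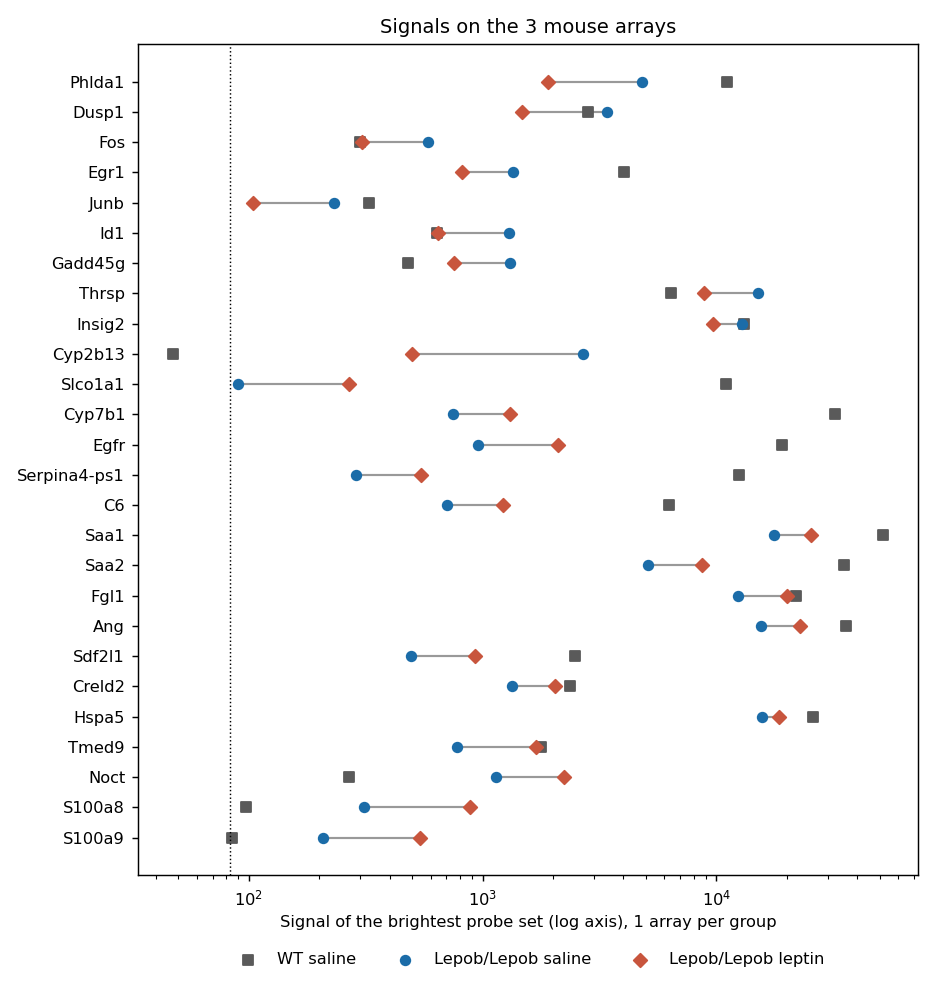
Signals of named genes on the 3 mouse arrays (log axis), brightest probe set, 1 array per group; the dotted line marks the floor of 82.7 and grey bars join the mutant arrays. Phlda1, Dusp1, Egr1 and Junb are lowest with leptin, Cyp7b1, Slco1a1, Egfr and C6 are higher with leptin but stay far below WT, and S100a8, S100a9 and Noct are highest with leptin.

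Bright genes with 1 probe set outside these groups included Noct, the circadian nocturnin, at 1146 with saline, 2232 with leptin and 269 in WT, 1.95-fold higher and the highest of the 3 arrays. Slc41a2, a magnesium transporter, read 1155 with saline and 2058 with leptin, against 2409.9 in the WT liver, 1.78-fold higher, and Dnase2a, a lysosomal nuclease, 4071 with saline, 6787 with leptin and 7626 in WT, 1.67-fold higher. For both, the leptin array stood closer to WT than to mutant saline. The Dnase2a probe set may bind several transcripts. Gm2788 had a log2 ratio of 0.68.

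Clock genes of the PER and DBP phase showed no common direction. The PER and DBP phase list had a median of -0.04 over 13 genes, with Nr1d1 2.19-fold lower (195 with saline and 89.3 with leptin, against 158 in the WT liver) and Per1 1.55-fold higher (353 with saline, 546 with leptin and 158 in WT). The 5 measured genes of the opposite, BMAL1 phase had a median of -0.33, with 4 below 0 and 1 above, led by the repressor Cry1 at -0.74. For some clock genes WT was far from both mutant arrays. Per3 read 726.5 with saline, 590.4 with leptin and 26.5 in WT, and Ciart 502.9, 418.2 and 17.8. Arntl read 202.4 with saline, 155.6 with leptin and 889.7 in WT. Clock was closer, at 898.2 with saline, 940.1 with leptin and 1305.8 in WT. Glucocorticoid targets had a median of 0.10 over 19, with 2 at least 1.5-fold higher (Per1 and Lcn2) and 2 lower (Dusp1 and Zbtb16). Zbtb16 gave -1.25, -2.06 and 0.086 on its probe sets, and -0.31 with the floor at the 75th percentile. The second of these is a bound, with leptin under the floor, and on the last saline was under it.

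Other processes had medians between -0.11 and 0.04. Medians were -0.11 for 25 interferon response genes, -0.025 for 19 NRF2 and metallothionein genes, -0.02 for 26 of oxidative phosphorylation, 0.025 for 28 of amino acid and urea metabolism, 0.04 for 14 ribosomal proteins and 0.00070 for 20 cell cycle genes. In the interferon list 16 members were below 0 and 9 above. The chemokine Cxcl9 read 804 with saline and 493 with leptin, against 1083 in the WT liver, 1.63-fold lower. Mx1 was at least 2.02-fold lower, and Stat2 was 1.51-fold higher on a dim probe set while another lay below 0.

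**Figure D4:**
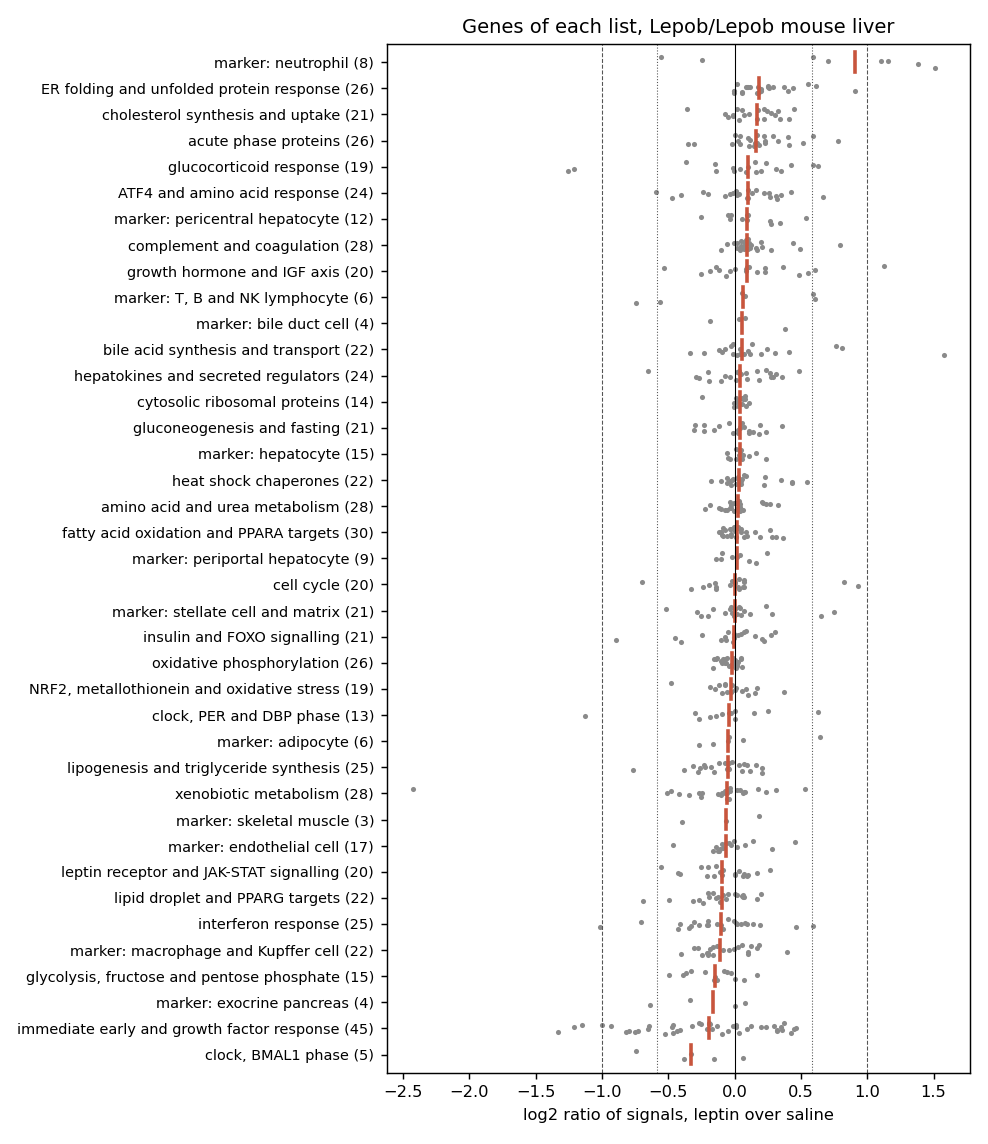
Log2 ratio of leptin over saline for each measured mouse gene of each list (grey points) with the list median (red bar); list sizes are in parentheses, dotted lines mark 1.5-fold and dashed lines 2-fold. The neutrophil markers have the highest median, the ER folding, cholesterol and acute phase lists follow between 0.16 and 0.18, and the immediate early genes and the BMAL1-phase clock genes are at the bottom.

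Of 18 neutrophil markers, 8 were measured, and 6 of these were at least 1.5-fold higher with leptin, beside 2.18% of all genes. Camp, 1 of the 6, entered only through its leptin signal, so its direction was fixed by the entry rule and its ratio is a bound. Without probe sets that may bind several transcripts, 5 of 7 were at least 1.5-fold higher, with a median log2 ratio of 0.71. Over the 8 the median log2 ratio was 0.90, with Camp at its bound, or 0.54 with the floor at the 75th percentile, where 4 were measured. S100a8, a subunit of calprotectin, read 312 with saline, 887 with leptin and 97.7 in WT, 2.85-fold higher, and its partner S100a9 208 with saline and 542 with leptin, against 84.6 in the WT liver, 2.61-fold higher. At the higher floor S100a9 had a log2 ratio of 0.49 and Chil3 of 0.24. The granule protein Ngp read 94.0 with saline, 210 with leptin and 121 in WT, the chitinase-like Chil3 212 with saline and 455 with leptin, against 36.4 in the WT liver, and the cathelicidin Camp, under the floor with saline, 12.8 with saline, 135 with leptin and 27.6 in WT.

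All 5 were highest on the leptin array, but all were dim. Csf3r and Il1b lay the other way, at -0.56 and -0.25. Other granule genes of the list, Mpo, Ltf, Mmp8 and Elane, were under the floor on both mutant arrays. The summed signal of the 14 markers with a probe set was 2868 in WT, 9283 with saline and 14666 with leptin, of which Lcn2, which hepatocytes also make, was most. In tissue RNA, more cells of a type and more RNA per cell cannot be told apart.

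Markers of most other cells had medians near 0. Medians were 0.038 for 15 hepatocyte markers, 0.094 for 12 pericentral and 0.017 for 9 periportal ones. After quantile normalization the hepatocyte median was 0, with 40.0% of markers above 0. Macrophage markers had a median of -0.11 over 22, with 14 below 0 and 8 above. Their summed signal was 48346 with saline and 45322 with leptin. Cd68, a lysosomal marker of macrophages, was the lowest at -0.41 and read 772 with saline and 582 with leptin, against 385 in the WT liver. Cd163 was the highest at 0.39 and read 489.5 with saline and 642 with leptin, against 1033 in the WT liver. Medians were -0.066 for 17 endothelial, 0.00010 for 21 stellate cell and matrix, 0.066 for 6 lymphocyte, 0.056 for 4 bile duct and -0.046 for 6 adipocyte markers. Exocrine pancreas (4 measured) stood at -0.17 and skeletal muscle (3) at -0.063; 2 red cell markers were measured, at -0.18 and -0.052. Lymphocyte markers went both ways: of the 6, Ighm, the heavy chain of IgM, and Jchain, which joins its units, were higher at 0.61 and 0.59, and Cd8a was lower with leptin under the floor, at -0.74 as a bound. Without probe sets that may bind several transcripts Ighm stood at 0.13. Of the stellate list 2 were at least 1.5-fold higher (Lum and Lama1), and of the adipocyte list 1 (Slc2a4), beside 2.18% of all genes. Lama1 and Slc2a4 were under the floor with saline and entered only through leptin. Their direction was thus fixed by the entry rule, and their ratios are bounds. Of the pancreas list 1 (Prss2) was at least 1.5-fold lower, beside 2.21% of all genes. The part that such cells had in the results was not tested.

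The rat comparison shares no array with that of the mice. With leptin, 204 of 9705 rat genes (2.1%) passed 1.5-fold upward and 251 (2.59%) downward, and 52% had a ratio above 0 and 47.9% below. In rats the lean of the brightest genes was larger: of 144 genes at 20000 or more, 90.3% were above 0, with a median log2 ratio of 0.10. Over 8213 genes measured in both species, 27.7% were above 0 in both and 26.1% below 0 in both.

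Rat ER folding genes leaned upward as in mice. The median of 25 was 0.20, with 24 above 0 and 0 at 1.5-fold, and 22 of the 25 were above 0 in both species. Manf had a rat log2 ratio of 0.55, Syvn1 0.34, Sdf2l1 0.31, Hspa5 0.27 and Creld2 0.26. Only 1 rat member was as bright as 20000.

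Immediate early genes in rats had a median of -0.16 over 43 genes, with 8 at least 1.5-fold lower and 0 higher; 21 of 42 measured in both were below 0 in both. At 1.5-fold Egr1 and Myc were lower in both species, 2 of the 9 mouse genes with a rat value and 2 of the 8 rat genes. Over all genes measured in both, 15 were lower in both, of 137 in mice and 193 in rats. Egr1 read 4702 with saline and 1708 with leptin in rats, and Myc 1323 and 626. Dusp1 stood at -0.17 in rats, Fos at -0.12 and Junb at 0.26, where mice had -1.15.

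Acute phase genes had a rat median of 0.18 over 21, with 20 above 0, 1 at least 1.5-fold higher and 0 lower; all 14 at 20000 or more and 6 of 7 dimmer ones were above 0. The 1 was A2m, the protease inhibitor alpha-2-macroglobulin, at 292 with saline and 1981 with leptin, 6.79-fold higher and the highest ratio of the 9705 rat genes. Mouse A2m was under the floor on all 3 arrays. Rat cholesterol genes had a median of 0.055 over 20, with 11 above 0, and Insig1, a sterol sensor, stood at -1.0 against 0.24 in mice. The 4 measured rat neutrophil markers had a median of 0.26 with 0 at 1.5-fold. Rat interferon genes had a median of -0.040 over 22. Of 19 measured in both species, 11 were below 0 in both, beside 26.1% of all genes, and 4 were above 0 in both. Rat cell cycle genes stood at -0.40, with 6 of 21 at least 1.5-fold lower, where the mouse median was 0.00070.

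Among the 30 agreeing higher mouse genes, 23 were measured in rats. Of these, 14 were above 0, beside 52% of all rat genes, and 2 were at least 1.5-fold higher, beside 2.1%. For the 26 agreeing lower genes, 21 were measured. Of these, 15 were below 0, beside 47.9% of all rat genes, and 5 were at least 1.5-fold lower, beside 2.59%. Fkbp5 stood at -0.90 in rats, Tns1 at -0.60, Insig2 at -0.57 and Slc45a3 at -1.62. Thrsp differed in direction, at 0.27 in rats, and so did Igfbp2, at -0.74. Cish, lower in both, read 522 and 126 in rats. C6, Ang and Id1 were close to 0 in rats, at -0.024, -0.081 and 0.023. Species differences were not tested.

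**Figure D5:**
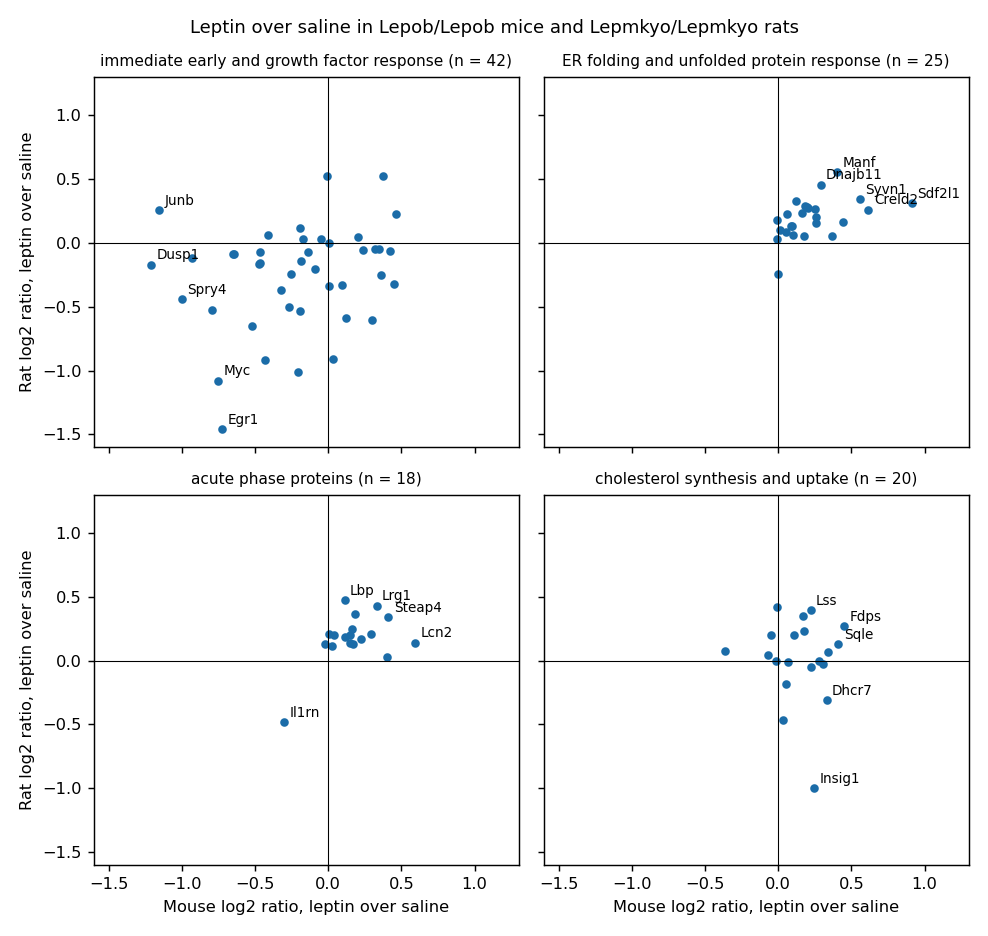
Log2 ratio of leptin over saline in Lepmkyo/Lepmkyo rats against that in Lepob/Lepob mice, for members of 4 lists measured in both species (n = 42, 25, 18 and 20). ER folding genes cluster in the upper right, with 22 of 25 above 0 in both, and immediate early genes spread to the lower left, with Egr1 and Myc low in both and Junb and Dusp1 low in mice.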

How the data were processed

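Liver RNA of 6 groups was hybridised to Affymetrix arrays, 1 array per group, per the labels. The deposited values are linear intensities, 1 per probe set, summarised by the authors in MAS5 (version not given), according to the submitters' processing notes. Trimmed means, leaving 2% out on either side, were 496 to 497. Such signals are noisy for dim probe sets, and detection calls were not used here.

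Gene symbols came from the platform annotation: 34945 of 45037 mouse probe sets had 1 symbol, 932 several and 9160 none, and 34741 were updated through RefSeq (GRCm38.p6). Only those with 1 symbol were used. The median over each platform served as the floor: 82.7 for mouse, 97.0 for rat. The probe set brightest on average stood for its gene, which entered if it was at the floor on 1 of the 2 arrays. Anything dimmer was set to the floor before the log2 ratio was taken, and such ratios are bounds. Rat genes were matched by identical symbol. The comparison has 1 array per side, so no test was run.

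The 40 gene lists (27 of pathways, 13 of cell markers), the sizes and the genes named were chosen with earlier results of these data known. Named were the 15 bright genes per direction whose probe sets agree and whose least-moved probe set is largest, the 8 largest bright genes per direction with 1 probe set, up to 4 members per list plus any needed for the other direction, and 18 genes set by hand; 208 of the 210 were measured. The counts at a signal of 20000, those with brightness from the mutant arrays alone and the comparison of lists between species were chosen after seeing the data. Promoters are the 250 bases upstream of RefSeq starts. Alternatives were quantile normalization, centring on the median ratio, a floor at the 25th or at the 75th percentile, the floor as a pseudocount, the median over probe sets, and leaving out probe sets that may bind several transcripts. The steps were tested on simulated data with Python 3.11.15, pandas 2.3.3 and numpy 2.4.6; figures used matplotlib 3.10.9.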

Additional observations from a re-analysis of the deposited data

How the results depend on the processing

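Each of 1400 recomputed ratios of named genes, 269 list medians and 44 counts was set beside its reported value; 1352, 267 and 30 moved by less than the allowed spread. A value took the opposite sign for 7 genes and 7 lists, 0 of them 1.5-fold (genes) or 1.1-fold (lists) as reported. With the median over probe sets these were Slc38a2 (0.36 to -0.041), Pck1 (0.11 to -0.018), Scd1 (0.072 to -0.011), Clock, Ndufb5, and the cell cycle and periportal medians. After quantile normalization they were Alb (to -0.046) and the medians of amino acid and urea metabolism (to -0.016), periportal markers (to -0.035), fatty acid oxidation (to -0.0017) and insulin signalling (to 0.0044). The bile duct median was -0.078 with the 25th percentile floor, where the cell cycle median was also below 0; with the 75th the periportal and stellate medians were. Sod1 changed sign without probe sets that may bind several transcripts. Counts moved mainly with the floor. A floor at the 25th percentile gave 408 genes upward and 436 downward at 2-fold, 1253 and 1263 at 1.5-fold; 4 genes were 1.5-fold higher on every probe set, and the skeletal muscle median was -0.51. A floor at the 75th percentile gave 5 upward and 4 downward at 2-fold, 28 and 29 at 1.5-fold, and the neutrophil median was 0.54. With the floor added as a pseudocount, 13 genes were 2-fold lower, and 130 were higher and 134 lower at 1.5-fold. Each of these settings changes how many dim genes can pass, by its own construction. Without probe sets that may bind several transcripts, 1 gene was 1.5-fold higher on every probe set, and so with brightness taken from the mutant arrays, a setting added after seeing the data. No paired analysis was possible because each group is 1 array, and leaving out replicates was not possible for the same reason. Low signal over background limits most genes under a signal of 500, and differences between animals could not be separated from the treatment.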
